A study of Arabidopsis thaliana with 625 samples.

Results

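Among 478 single cells of the Arabidopsis thaliana reporter line TMMp::TMM-YFP, 219 were discordant for the reporter, either bright with little TMM transcript or dim with much of it. Brightness was the log2 FITC area signal that the sorter recorded for each cell, the channel that reads YFP, and transcript was the TPM of TMM, a share of all transcripts corrected for gene length, (AT1G80080) in the same cell. Cells were chosen on both readings within each sort plate: group A, 110 cells, lay above the plate median of brightness and below the plate median of TMM, and group B, 109 cells, was the reverse. The concordant cells were 123 bright cells with high transcript (group C) and 124 dim cells with low transcript (group D), and 12 cells lay on a median and entered no group. Discordant cells were 47.0% of the 466 grouped cells, and between 39.3% and 56.7% on the 7 plates. A split at both medians gives shares of this size whenever the readings have little rank correlation, so the share follows from the rule.

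All groups came from aerial tissue of seedlings 10 days after germination and carried the same transgene, in which the promoter of TMM drives TMM fused to YFP. The labels name no other allele or treatment. Transcripts were read with Smart-seq2, which copies whole mRNAs of 1 sorted cell per well and counts no molecular identifiers, and a plate held between 12 and 19 cells of each of A and B. Plates TMM-1 and TMM-2 belonged to pool 1 of the labels and the other 5 plates to pool 2, and nothing in the sources used here says whether pools or plates came from separate plants. Plates served as the units of every test, so the p-values measure only the spread between plates, which may be technical.

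TMM (TOO MANY MOUTHS) is a receptor-like protein of the plasma membrane that acts with ERECTA-family receptor kinases to read EPF peptides and so spaces stomata, the pores of the leaf epidermis. Its promoter is active in the early stomatal lineage, in which SPCH starts the asymmetric divisions, MUTE ends them and FAMA controls the last, symmetric division that yields the guard cell pair, while ICE1 and SCRM2 are their partner proteins. Fluorescence of a protein fusion reads protein already made, whereas TPM reads the mRNA present at lysis.

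Brightness and transcript of TMM had rank correlations near 0 within plates. Across the cells of a plate, Spearman's rho between FITC and TMM ran from -0.19 to 0.13, with a median of 0.0044 over 7 plates. TMM and the YFP sequence, which share the transgene's mRNA, had a rho between 0.88 and 0.95. Reads of the transgene and of the native TMM gene cannot be told apart in the TMM value. Cells of 1 plate share library preparation and sort, so these are descriptions.

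The 2 readings that chose the groups are given without a test. Plate means of FITC in A were 11.2 at the lowest, 11.4 at the median and 11.6 at the highest, and in B they were 10.2, 10.5 and 10.7 on the log2 scale. TMM in A was 186, 265 and 444 TPM, and in B it was 1644, 1921 and 2506 TPM. The YFP sequence, at 147, 206 and 400 TPM in A and 1067, 1194 and 2029 TPM in B, followed TMM. Bright cells of both transcript classes were about equally bright, with plate means of 11.43 ± 0.12 in A and 11.46 ± 0.08 in C (SD, n = 7 plates). The cut was narrow at its edge: the dimmest A cell of a plate lay between 0.00070 and 0.099 above the plate median of FITC, and the brightest B cell between 0.0082 and 0.12 below it. The highest TMM in A was between 479 and 920 TPM by plate, and the lowest TMM in B was between 620 and 1081 TPM.

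TMM was listed at 0 in 17 of the 110 A cells and 30 of the 124 D cells, and in 15 of those 17 and in all 30 the YFP sequence was at 0 too. No B or C cell could be at 0 by the rule.

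**Figure D1:**
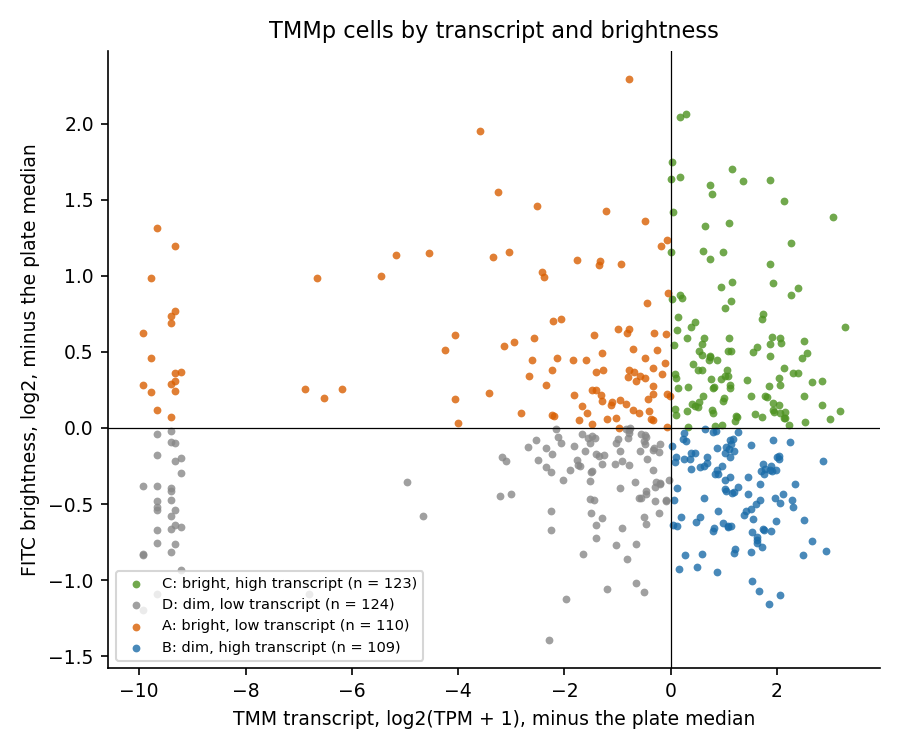
Each point is 1 TMMp cell, with its TMM transcript as log2(TPM + 1) minus the plate median on the horizontal axis and its log2 FITC brightness minus the plate median on the vertical axis. The points fill all 4 quadrants, with 110 cells in A and 109 in B, and the cells at the far left are those with TMM at 0.

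Bright cells with low transcript had higher forward and side scatter than dim cells with high transcript. Plate means of the log2 forward scatter area, a proxy of cell size, were 16.7, 16.8 and 16.9 in A and 16.3, 16.4 and 16.7 in B at the lowest, median and highest plate. Forward scatter was higher in A on all 7 plates, by 0.32 ± 0.14 (mean and SD of 7 plate differences; two-sided exact sign-flip test, p = 0.0156, adjusted p = 0.0208 over 8 measures), and 0.0156 is the smallest p that 7 plates allow. Side scatter area, which reads internal granularity, was 10.7, 10.8 and 11.0 in A and 10.0, 10.2 and 10.5 in B. It was higher in A on 7 of 7 plates, by 0.59 ± 0.21 (exact sign-flip test, p = 0.0156, adjusted p = 0.0208). The height and width of both scatters were likewise higher in A on 7 of 7 plates, each with an adjusted p of 0.0208 in the exact sign-flip test. Both scatters followed brightness across all cells of a plate, with rho between 0.25 and 0.66 for forward and between 0.41 and 0.71 for side scatter, and the concordant groups sat with the discordant group of the same brightness, at a forward scatter of 16.76 ± 0.14 in C and 16.45 ± 0.10 in D.

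Group A cells held fewer genes on average than B cells, but not beyond the spread between plates. A cell of A had 2753 ± 362 genes at a TPM of at least 1 and a cell of B 3320 ± 668 (mean and SD of 7 plate means). The difference was -566 ± 625 genes, below 0 on 5 of 7 plates (exact sign-flip test, p = 0.0625, adjusted p = 0.0714). On plate TMM-1 it was -1798, and without that plate the mean difference was -361 (exact sign-flip test, adjusted p = 0.143). Genes detected followed the transcript, with rho between 0.47 and 0.70 within plates. They also followed brightness, with a rho of -0.037 at the lowest, 0.39 at the median and 0.50 at the highest plate. Group C had 4045 ± 589 genes and group D 2201 ± 457. Genes detected thus moved with both readings that chose the groups. Results on genes are therefore given below also as residuals from a regression on genes detected, fitted over all cells of a plate. Counts of several gene lists are also given with forward scatter added to that regression. Transcripts of the organelles took 7.82% ± 2.22 of TPM in A and 5.49% ± 0.75 in B (exact sign-flip test, p = 0.0781, adjusted p = 0.0781, higher in A on 6 of 7 plates).

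**Figure D2:**
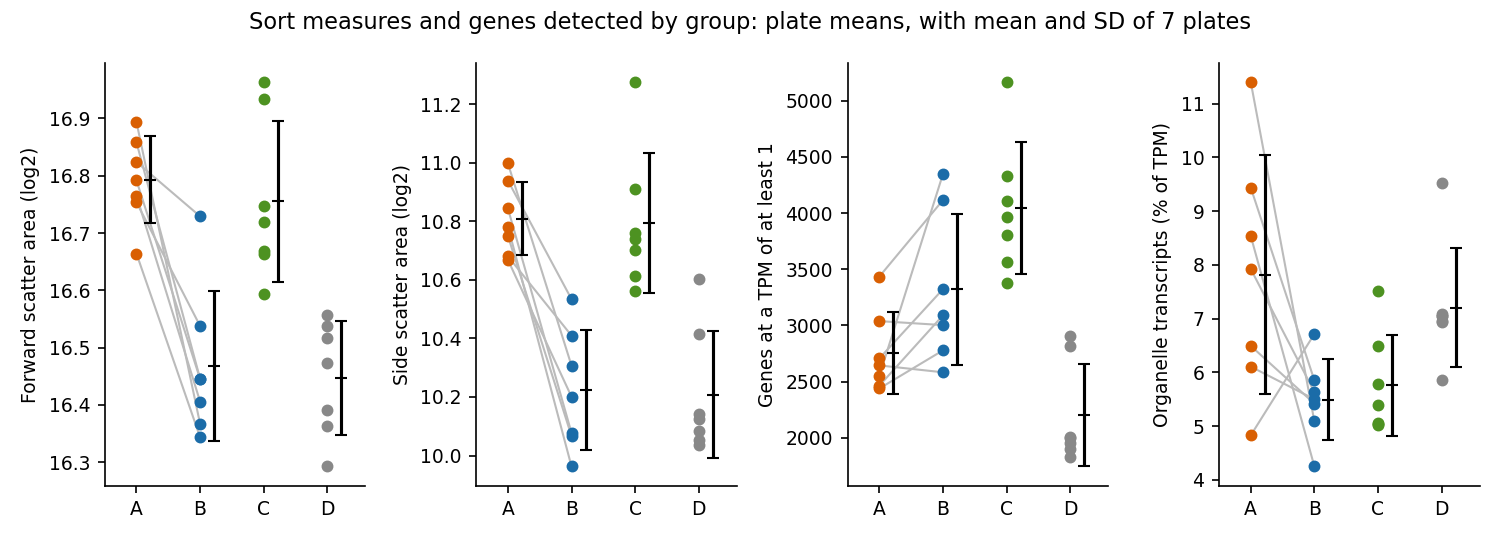
Plate means of forward scatter, side scatter, genes detected and the share of organelle transcripts in groups A to D, with grey lines joining A and B of a plate and bars giving the mean and SD of 7 plates. Forward and side scatter are higher in A than in B on every plate, while genes detected overlap between A and B.

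Between bright cells with low transcript and dim cells with high transcript, AT4G39670, BCB and JAZ1 were among the genes higher in A, and ICE1, UGE3 and FAMA among those lower in A. The test was limma on the mean log2(TPM + 1) of each plate and group, with the plate as a block, over the 9422 genes present in 10% or more of these cells, leaving out TMM and YFP. At a Benjamini-Hochberg adjusted p under 0.05 it called 1602 genes, 17% of those tested. In A, 303 genes (3.22%) were higher and 1299 (13.8%) were lower. The median difference over all genes was -0.34 on the log2(TPM + 1) scale, a scale that understates the change of low genes. With residuals on genes detected, 477 genes were called (5.06%), 241 higher (2.56%) and 236 lower (2.5%), and the median moved to -0.06. Of the genes called at first, 224 of those higher in A and 236 of those lower in A were called in the same direction on the residuals. With forward scatter added to the residuals, 219 genes were called, 96 higher and 123 lower. The split between directions also depended on how cells were averaged, at 155 higher and 358 lower with the log2 of the mean TPM, and on the cells with TMM at 0, at 325 higher and 748 lower without them. The count of 1602 was 796 without plate TMM-1, 1022 without TMM4, 386 without pool 1 and 567 without pool 2.

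The 12 genes with the largest difference in favour of A were higher there on 7 of 7 plates, by 3.12 to 5.06, and all 12 were called on the residuals too. They were picked among called genes with the same sign on at least 6 plates. Of all 303 genes called higher in A, 174 were higher on all 7 plates. The glycolipid transfer family gene AT4G39670 had plate means of 7.11, 8.95 and 10.6 in A and 1.61, 3.26 and 6.53 in B at the lowest, median and highest plate. The lowest A plate lay above the highest B plate, and the difference was 5.06 ± 0.55 (SE; limma adjusted p = 2.47e-13). BCB, a blue copper protein of the stress response, was at 6.99, 8.78 and 10.8 in A and at 2.95, 3.86 and 5.70 in B. Its groups did not overlap either, with a difference of 4.60 ± 0.54 (limma adjusted p = 8.71e-12). AT5G35735, annotated as an auxin-responsive family protein, differed by 4.96 ± 0.58, AT1G19020 by 4.32 ± 0.52 and AR781 by 4.05 ± 0.57, all without overlap between plates of A and B.

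Jasmonate genes stood among the same 12. AOC1, allene oxide cyclase, which makes the precursor ring of jasmonate, was at 8.20, 8.91 and 10.2 in A and at 3.18, 5.14 and 8.86 in B. The groups overlapped, although A was higher on each plate, by 3.34 ± 0.50 (limma adjusted p = 1.04e-07). AOC1 has near-identical copies, between which reads may have been split. JAZ1, a jasmonate-induced repressor of the jasmonate response, was at 4.84, 5.34 and 7.43 in A and at 0.82, 2.28 and 4.26 in B, with no overlap, and differed by 3.27 ± 0.56 (limma adjusted p = 5.49e-06). The others were GRP-3 (3.67 ± 0.57), a glycine-rich protein, the protease inhibitor AT2G38870 (3.59 ± 0.49), the VQ-motif protein AT2G22880 (3.30 ± 0.57), the glutathione transferase GSTF6 (3.27 ± 0.56) and AT1G25400 (3.12 ± 0.54), an uncharacterized protein.

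Of 29 genes of wounding and protoplasting, 24 were tested, of which 11 were higher and 2 lower in A, where 3.22% of all genes were higher and 13.8% lower. The median difference was 0.99 against -0.34 over all genes. On the residuals 6 were higher and 2 lower, beside 2.56% and 2.5% of all genes. With forward scatter added 5 were higher and 0 lower, beside 96 and 123 of all 9422 genes. The 11 higher before the residuals included AOS (3.02 ± 0.53), allene oxide synthase, and the transcription factors WRKY40 (2.25 ± 0.53) and ZAT10 (1.95 ± 0.56). Others were LOX4, a lipoxygenase (1.59), and the calmodulin-like CML37 (1.68) and CML38 (1.65). Of 25 alternative settings, AOS lost its call in 1, WRKY40 in 2, ZAT10 in 8, LOX4 in 9, CML38 in 10 and CML37 in 11. CML38 also reversed in 1. The members did not move as 1 block: JAZ10, also a jasmonate-induced repressor, was lower in A, at 1.44, 2.86 and 3.02 against 3.16, 4.96 and 6.94 in B. Its groups did not overlap, and it fell by 2.49 ± 0.55 (limma adjusted p = 0.000541). TCH2, a touch-induced calmodulin-like protein, fell by 2.53 ± 0.57 (limma adjusted p = 0.000582). The summed TPM of the list was 1.27%, 1.80% and 2.17% of all TPM in A and 0.98%, 1.26% and 1.47% in B, higher in A on 7 of 7 plates. In D, the dim cells with low transcript, it was 1.74%, 1.98% and 2.82%, and in C it was 0.74%, 1.07% and 1.70%. Genes of wounding are also raised by the making of protoplasts, and the part of cell handling in these values was not tested.

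The 12 genes with the largest difference in favour of B, picked in the same way, were higher in B on 7 of 7 plates, and all 12 were called on the residuals. Of all 1299 genes called lower in A, 616 were lower on all 7 plates. AT1G52910, a protein of unknown function (DUF1218), had plate means of 1.02, 2.06 and 2.96 in A and 6.37, 6.68 and 9.18 in B. The groups were far apart on each plate, with a fall of 5.39 ± 0.57 in A (limma adjusted p = 1.16e-13). The antisense gene AT1G07847 (-5.91 ± 0.57) and the neighbour AT1G52920 (-3.49 ± 0.51), annotated as a G protein coupled receptor, overlap AT1G52910 on the other strand in the annotation, and without strand their reads cannot be told apart, so these 3 genes may carry 1 signal. The antisense gene AT1G09523 (-3.56 ± 0.51) likewise overlaps BZR1, the transcription factor of brassinosteroid signalling.

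Several of the 12 make or modify the cell wall and cuticle. UGE3, an epimerase that supplies UDP-galactose, was at 0, 0 and 2.02 in A and at 3.06, 5.04 and 6.05 in B, and was present at a TPM of at least 1 in 8 A cells and 60 B cells. The difference was -4.33 ± 0.50 (limma adjusted p = 6.09e-12), with no overlap. The pectin methylesterase inhibitor family gene AT4G25260 (-4.62 ± 0.53) and AT4G25620 (-4.62 ± 0.54), a hydroxyproline-rich protein, also lay apart on all plates. KCS10, an enzyme of long-chain fatty acids also known as FIDDLEHEAD, was at 0.99, 1.93 and 3.38 in A and at 2.62, 5.25 and 7.15 in B, with overlapping ranges and a difference of -3.43 ± 0.55 (limma adjusted p = 7.72e-07). The remaining members were AT3G47295 (-3.92 ± 0.57), HOG1 (-3.74 ± 0.55), the adenosylhomocysteinase of the methyl cycle, and ASPG1 (-3.49 ± 0.50), an aspartic protease of guard cells.

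The stomatal gene among them was ICE1. It was at 1.15, 1.92 and 2.88 in A and at 4.49, 5.50 and 7.25 in B, and 32 A cells and 82 B cells had it at a TPM of at least 1. The groups did not overlap and the difference was -3.86 ± 0.55 (limma adjusted p = 3.39e-08). In the concordant groups ICE1 went with the transcript, at 4.86, 6.41 and 6.88 in C and at 0.66, 1.86 and 3.15 in D.

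**Figure D3:**
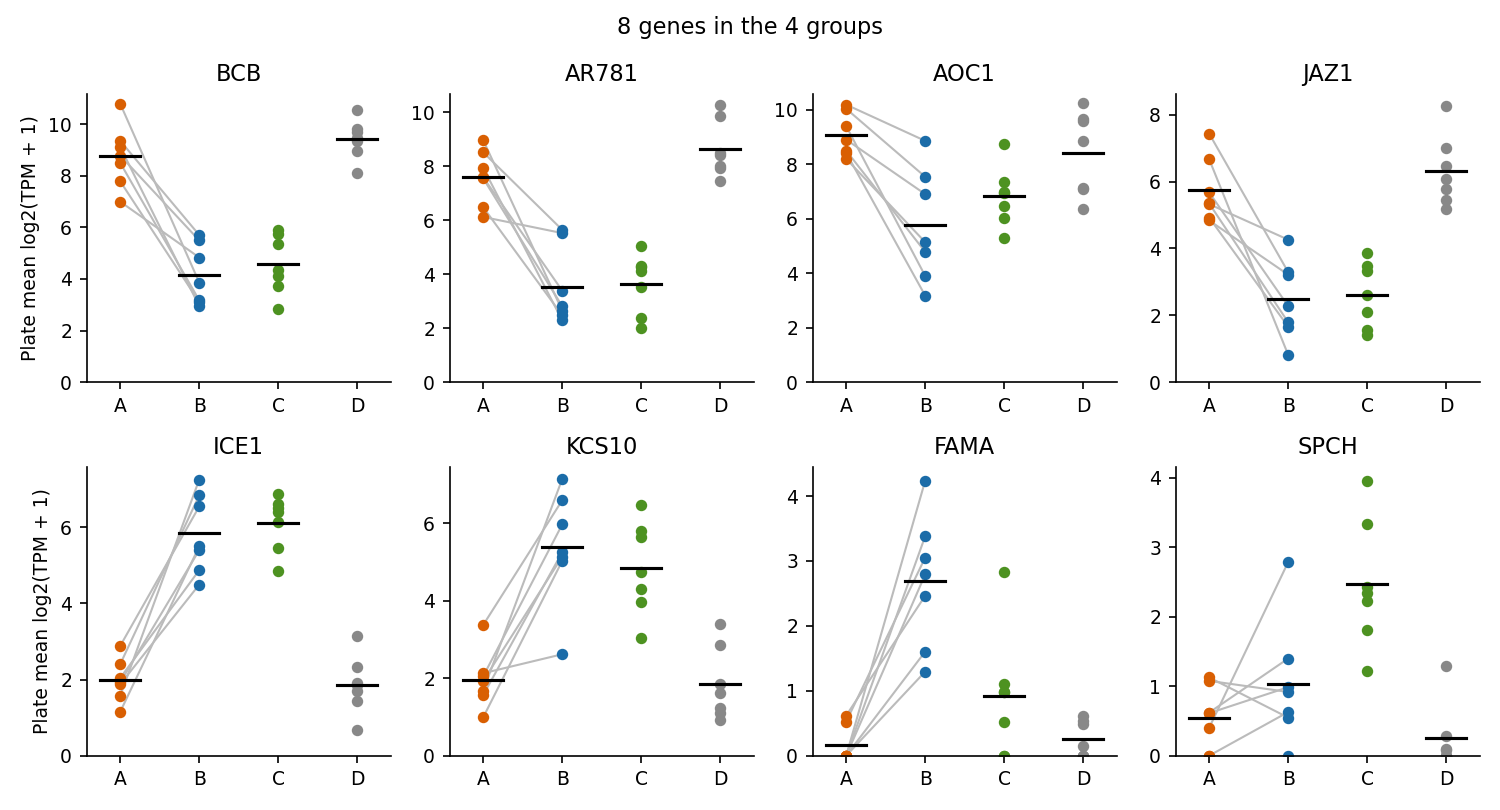
Plate means of log2(TPM + 1) for 8 genes in groups A to D, with black bars for the mean of 7 plates and grey lines joining A and B of a plate. BCB, AR781, AOC1 and JAZ1 are high in both low-transcript groups, A and D, ICE1 and KCS10 are high in both high-transcript groups, and FAMA is highest in B while SPCH is highest in C.

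Early lineage genes other than TMM were lower in A or did not pass the test. Of 20 tested, 7 were lower and 0 higher, beside 13.8% of all genes lower, at a median of -0.42 against -0.34 over all genes. On the residuals 2 were lower, ICE1 and HDG2, beside 2.5% of all genes. With forward scatter added only 1 was lower, ICE1, beside 123 of all 9422 genes. Beside ICE1 the 7 included its paralogue SCRM2 (-1.57 ± 0.39), the cell-cycle regulators SOL1 (-1.66 ± 0.44) and TCX2 (-0.96 ± 0.34), the polarity protein POLAR (-1.59 ± 0.46), HDG2 (-2.24 ± 0.55), an epidermal homeodomain factor, and MPK3 (-1.59 ± 0.56), a kinase of the stomatal pathway. SPCH did not differ past the threshold, at 0, 0.61 and 1.13 in A and 0, 0.92 and 2.79 in B (-0.49 ± 0.29, limma adjusted p = 0.247).

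Of 7 commitment and guard cell genes tested, 5 were lower in A and 0 higher, beside 13.8% of all genes lower, at a median of -0.93 against -0.34 over all genes. On the residuals 2 were lower, beside 2.5% of all genes, and 2 with forward scatter added, beside 123 of all 9422 genes. FAMA was at 0, 0 and 0.62 in A and at 1.29, 2.79 and 4.24 in B. No A plate reached the lowest B plate, and FAMA fell by 2.53 ± 0.40 (limma adjusted p = 6.35e-07). MYB60, a guard cell transcription factor, was at 0, 0.46 and 0.58 in A and at 0.89, 2.84 and 4.89 in B, a difference of -2.24 ± 0.41 (limma adjusted p = 2.34e-05) without overlap. The peptide EPF1 (-0.93 ± 0.29), the anion channel SLAC1 (-0.93 ± 0.27) and the sugar transporter STP1 (-2.15 ± 0.56) were the other called members, and none of them passed on the residuals.

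Of 16 epidermis and cuticle genes tested, 9 were lower in A and 1 higher, beside 13.8% and 3.22% of all genes, at a median of -1.42 against -0.34. On the residuals 3 were lower (KCS10, GPAT4 and ABCG11) and 1 higher (KCS1), beside 2.5% and 2.56% of all genes, and PDF1 no longer passed. With forward scatter added 1 was lower, KCS10, and 0 higher, beside 123 and 96 of all 9422 genes. PDF1, a marker of the protoderm, fell by 2.29 ± 0.57, the acyltransferase GPAT4 by 2.17 ± 0.46 and the wax and cutin exporter ABCG11 by 2.26 ± 0.52. KCS1, an elongase of wax synthesis, was the higher member (1.94 ± 0.55).

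Counted over cells, FAMA was at a TPM of at least 1 in 3 of 110 A cells and 32 of 109 B cells, MYB60 in 5 and 33, EPF1 in 4 and 21, and HDG2 in 41 and 74. Each of these 4 shares was lower in A on 7 of 7 plates, for FAMA by 26.6 ± 12.1 percentage points and for MYB60 by 25.2 ± 18.7 (exact sign-flip test, p = 0.0156, adjusted p = 0.0586 over 15 stage genes). None of the 15 shares passed 0.05 after adjustment in the exact sign-flip test, and 6 had an unadjusted p under 0.05, the others being PDF1 and ERL1. The 4 stood at the smallest p that 7 plates allow in that test. Over 15 genes a share at that p passes only where more shares also have a low p, so the lack of a pass does not show equal shares. When any TPM above 0 counted as present, 5 shares passed. MUTE was in 4 A and 10 B cells, BASL in 3 and 5, and SCAP1 in 2 and 4, none of them past the threshold.

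Over all genes 13.8% were lower and 3.22% higher in A, and 2.5% and 2.56% on the residuals, which the counts of the remaining lists are set against. Among housekeeping lists, 13 of 26 proteasome genes tested were lower in A and 0 higher (median -1.15), as were 23 of 96 cytosolic ribosome genes (median -0.91), 7 of 27 secretory pathway genes (median -0.99) and 11 of 30 photosynthesis genes (median -1.11). On the residuals these counts were 2, 1, 3 and 4, of which the 1 of 96 ribosome genes is not above the share over all genes. With forward scatter added the counts were 1, 0, 1 and 1, beside 123 of all 9422 genes. In that setting 1 photosynthesis gene was higher in A, beside 96 of all genes. PAF1, a proteasome subunit, differed by -2.78 ± 0.54, the calreticulin CRT1 by -2.96 ± 0.51 and LHCA3, an antenna protein of photosystem I, by -3.07 ± 0.56. The lists of protein transport, mRNA decay, chaperones and S phase had counts of lower genes near the share over all genes: 2 of 27 endocytosis and vacuole genes were lower in A (VSR1, -2.06 ± 0.52, and VSR3, both vacuolar sorting receptors) and 0 higher, and of 16 mRNA decay genes DCP1 and DCP5 were lower and the deadenylase CAF1B higher (2.02 ± 0.54). Of 18 chaperone genes 1 was higher, the heat shock factor HSFB2A (2.52 ± 0.54), and 2 were lower. Among 12 S phase and 2 mitotic genes tested, 1 and 2 were lower and 0 higher, and the 1 endocycle gene tested was lower. WRKY40, AT2G22880, JAZ10, TCH2, UGE3, AT4G25620, MPK3, STP1, ABCG11 and VSR1 overlap an antisense gene in the annotation, and so do POLAR, HDG2, SOL1 and TCX2, whose reads the counting could have mixed if it did not use strand. Of 120 organelle transcripts tested, 7 were higher in A and 0 lower, at a median of 0.20. Of the markers of other cell types, 1 of 10 trichome genes and 1 of 16 vascular genes were detected widely enough to be tested and neither passed, and GL1, GL2, GL3, ETC1 and MYB23 of trichomes and APL, SWEET11, SWEET12 and VND7 of veins were at 0 in every A and B cell. Photosynthesis genes were widely detected, with 30 of 33 tested. Their sum took 0.24% to 1.84% of TPM in A, with a median of 0.35% over plates. In B it took 0.29% to 0.77%, with a median of 0.59%, and it was higher in A on 3 of 7 plates.

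The 4 groups together separate the readings, because brightness can be compared at a given transcript class, (A + C - B - D)/2, and transcript at a given brightness class, (B + C - A - D)/2. The transcript contrast called 5997 genes (63.6%), 5445 higher (57.8%) and 552 lower (5.86%) with high transcript. The rule used TMM for this contrast, and groups B and C held more genes per cell than A and D. The brightness contrast called 805 genes (8.54%), 782 higher (8.3%) and 23 lower (0.244%) in bright cells. Bright cells also held more genes on average than dim cells of the same transcript class, A more than D and C more than B. With residuals on genes detected the transcript contrast called 992 genes (10.5%), 536 higher and 456 lower, and the brightness contrast 59 (0.626%), 16 higher and 43 lower. The brightness count was 1435 without plate TMM-1, 345 without TMM-2, 156 without TMM3, 463 without TMM4, 310 without TMM6 and 0 without pool 2 (limma, 590 at an unadjusted p under 0.05). The transcript count was 2881 without pool 2. In limma the interaction of the readings called 0 genes, while 565 were under 0.05 before adjustment.

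The leading genes between A and B were set beside both contrasts. None of the 24 genes named above passed for brightness in limma, with brightness differences between -0.57 and 0.87 for the 12 higher in A and between -0.74 and 0.62 for the 12 lower in A, beside transcript differences from -5.62 to -2.46 and from 3.16 to 5.56. These genes were picked for a large difference between A and B, which equals the brightness difference minus the transcript difference. Other genes called between A and B did pass for brightness, among them FAMA (-0.93 ± 0.24, limma adjusted p = 0.0103) and PDF1 (1.72 ± 0.38, limma adjusted p = 0.00319). BCB was at a median of 9.46 in the dim D cells and 4.35 in the bright C cells. These contrasts share their cells with A against B, so the values are set side by side only. The wounding list held 0 genes called for brightness in limma among 24, where 8.54% of all genes were called.

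**Figure D4:**
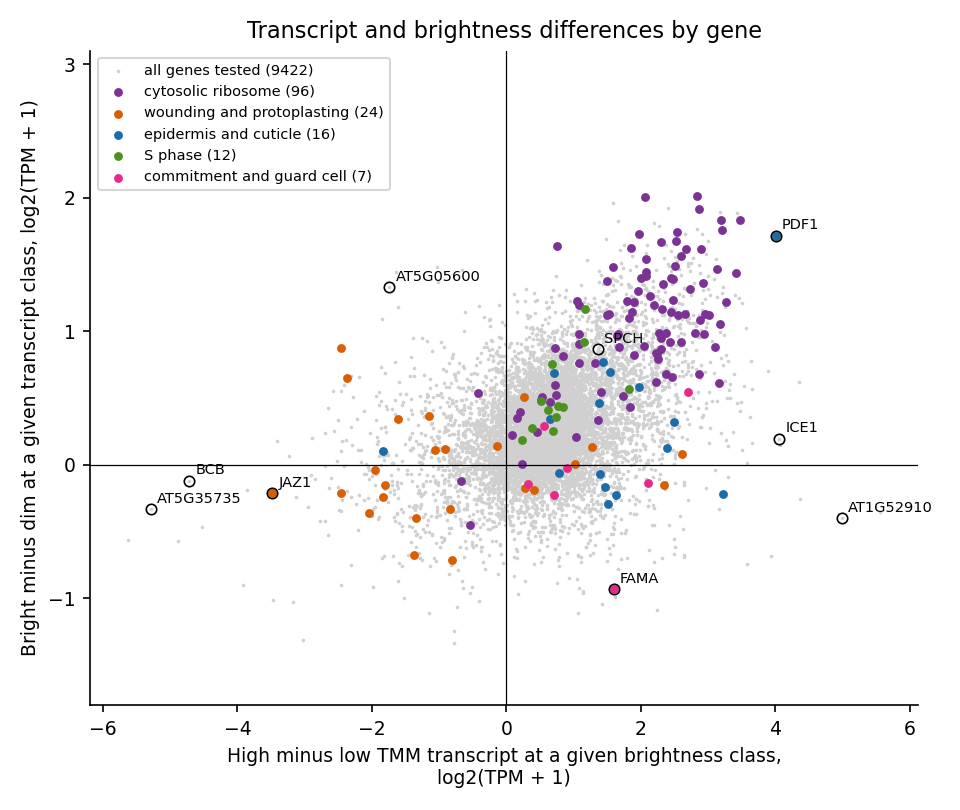
Each point is a gene, with its difference between high and low transcript on the horizontal axis and its difference between bright and dim cells on the vertical axis, both in log2(TPM + 1); colours mark 5 gene lists and circles the named genes. The wounding genes spread along the transcript axis, the ribosomal genes lie high on both axes, and FAMA lies below 0 for brightness.

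Within the cells with low transcript few genes passed between bright and dim cells: A against D called 1 of 9422 genes (0.0106%), with 937 at an unadjusted p under 0.05. That gene, AT5G05600, a 2-oxoglutarate oxygenase known to hydroxylate jasmonate, was at 2.25, 3.23 and 6.17 in A and at 0.30, 1.34 and 2.205 in D. All A plates lay above all D plates, with 41 A cells and 19 D cells at a TPM of at least 1. In B it was at 0, 0.61 and 0.87, below every A plate, and in C at 0, 0.88 and 1.92. It was named after its values were seen.

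Within the cells with high transcript, bright cells (C) differed from dim discordant cells (B) in 559 genes (5.93%), 522 higher (5.54%) and 37 lower (0.393%) in C. On the residuals 150 genes passed, 72 higher and 78 lower in C. The count of 559 was 937 without plate TMM-1, 226 without TMM-2, 120 without TMM3, 310 without TMM6 and 18 without pool 2, which leaves 2 plates. Without pool 2 most calls were in the other direction, with 1 gene higher and 17 lower in C. Cytosolic ribosome genes made up 44 of those higher, out of 96 tested, with a median difference of 1.50 against 0.29 over all genes. On the residuals 8 of the 96 were higher, at a median of 0.81. The list's largest brightness difference was that of the ribosomal protein L32e gene AT4G18100, at 7.71, 8.23 and 8.91 in C and at 3.29, 5.66 and 7.86 in B. The groups overlapped, and the difference was 2.46 ± 0.54 (limma adjusted p = 0.00301). Group C also held more genes per cell than B, and with residuals on genes detected AT4G18100 no longer passed (limma adjusted p = 0.0624).

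SPCH and FAMA differed in opposite directions between the bright and the dim cells of high transcript. SPCH was at 1.21, 2.34 and 3.96 in C and at 0, 0.92 and 2.79 in B, and was present in 45 of 123 C cells and 16 of 109 B cells. It was higher in C by 1.44 ± 0.33 (limma adjusted p = 0.00538). FAMA showed the opposite, at 0, 0.98 and 2.83 in C against 1.29, 2.79 and 4.24 in B, in 14 C cells and 32 B cells. FAMA was lower in C by 1.77 ± 0.33 on the log2(TPM + 1) scale (limma adjusted p = 0.00114), and the adjusted p was 2.51e-05 on the residuals, against 0.0546 for SPCH. BASL, the polarity protein of asymmetric divisions, fell below the detection filter and was not tested. It was in 26 C cells, 5 B cells, 3 A cells and 0 D cells.

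**Figure D5:**
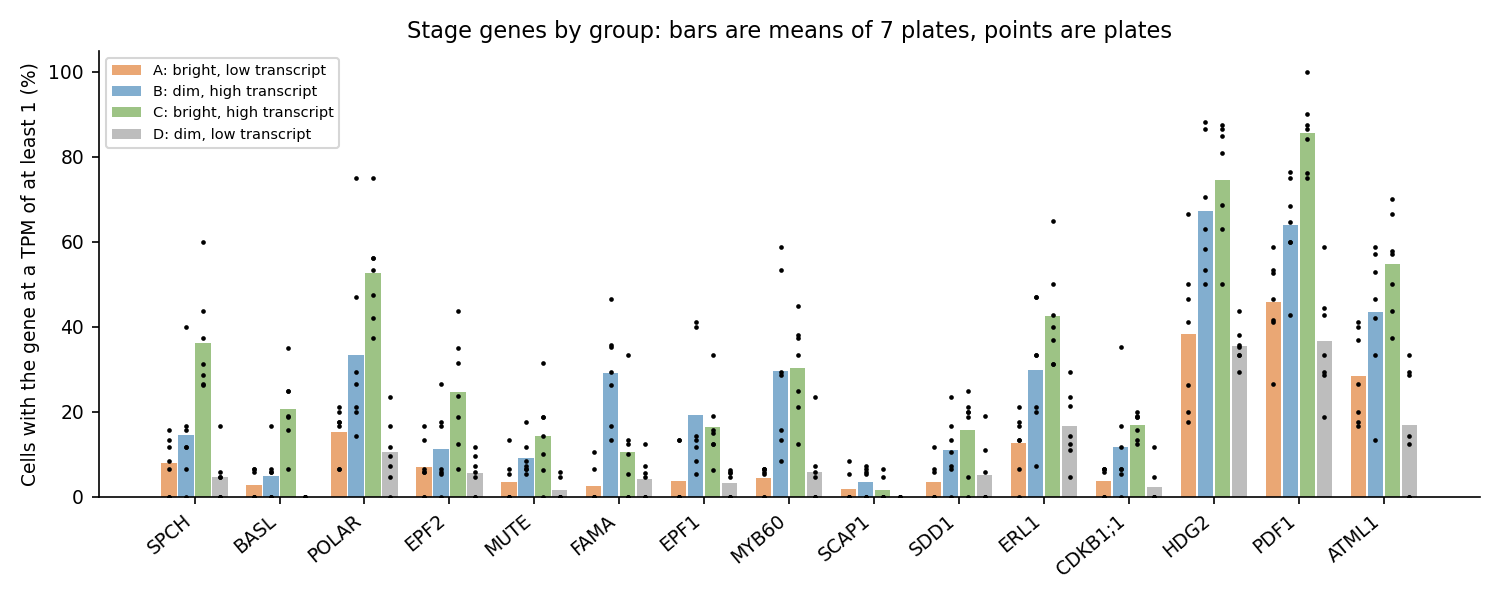
The share of cells in which each of 15 stage genes had a TPM of at least 1, in groups A to D, as the mean of 7 plates (bars) and single plates (points). SPCH and BASL are highest in C, FAMA is highest in B, and MYB60 and EPF1 are near each other in B and C.

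Of 20 early lineage genes tested 3 were higher in C than in B and 0 lower, where 5.54% of all genes were higher: SPCH, TCX2 (1.57 ± 0.37) and the receptor kinase ERL2 (1.23 ± 0.39). Of 12 S phase genes tested 3 were higher and 0 lower: the replicative helicase subunit MCM7 (1.32 ± 0.37) and the sliding clamps PCNA1 (1.06 ± 0.31) and PCNA2 (1.50 ± 0.44). PDF1 was higher in C by 2.39 ± 0.54, a call lost on the residuals (1.44, limma adjusted p = 0.115). MYB60, in 38 C and 33 B cells, did not pass (-0.18 ± 0.40, limma adjusted p = 0.85), and neither did ICE1 (0.28 ± 0.48, limma adjusted p = 0.797). None of the early lineage and S phase genes named here passed on the residuals, with adjusted p from 0.0546 for SPCH to 0.215 for ERL2 in limma. AT1G52827, annotated as a cadmium tolerance protein, moved as FAMA did: it was at 1.46, 2.83 and 3.89 in C and at 3.57, 4.78 and 5.18 in B (-1.73 ± 0.44, limma adjusted p = 0.0102), and it passed on the residuals too (adjusted p = 0.00065). UGE3 was also lower in C than in B (-1.47 ± 0.45, limma adjusted p = 0.0331).

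The same split was made in the other reporter line, ATML1p::YFP-RCI2A, in which an epidermal promoter drives a membrane marker, with the YFP sequence in place of TMM. It left 20 A and 18 B cells on 4 of 5 plates, since the median YFP was 0 on the fifth. In that line limma called 0 genes between A and B, while 852 were under 0.05 before adjustment. Of the 12 genes highest in A of the TMMp line, 11 had a difference above 0 in ATML1p, where the median over all genes was also above 0. The 12 ran from -2.73 to 5.05, with AT5G35735 at 4.89 ± 1.26 and GSTF6, the highest, at 5.05 ± 1.36. Of the 12 highest in B, 11 had a difference below 0 there, though AT1G07847, AT1G52910 and AT1G52920 among these 12 may carry 1 signal. FAMA was at -0.97 ± 0.97 in that line. A direct test of the lines against each other called 229 of 9422 genes, 9 with a higher and 220 with a lower difference in TMMp, which included 1 of the 24, GRP-3. That test fitted 1 variance to both lines, although ATML1p plate means rest on fewer cells, so it may call too many genes. Over all genes the median difference between A and B was 0.39 in ATML1p, and the median of the TMMp value minus the ATML1p value was -0.78.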

How the data were processed

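The authors deposited expression as TPM, by gene and single Smart-seq2 cell; a table of sorter readings gave log2 values of 7 channels per cell, deposited per the file headers as log2 of the median signal. Cell Ranger and TAIR10 stand in the submitters' processing notes, and which program made the TPM is not given in the sources used here. TPM keep no depth, so genes at a TPM of at least 1 (384 to 10727 per TMMp cell) stood in for it. The table held 0 unmapped value columns. No cell was removed and no doublet caller was run. The 4 droplet samples were not analysed here.

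Cells were matched to sorter readings by name and split at plate medians. log2(TPM + 1) was averaged per plate and group. limma 3.58.1 (R 4.3.3, eBayes with trend, plate as block) tested the 9422 genes present in 10% or more of these cells. Benjamini-Hochberg adjustment was used at 0.05. For A against B it was tested on simulated data with 200 changed genes. It recovered 0 of the 200 at a log2 difference of 0.5, 2 at 1 and 151 at 2. False calls were 0, 0 and 3. A gene that was not called may therefore still differ between A and B. The simulated noise was independent between genes, so the false calls do not cover shifts shared by many genes, such as those with genes detected. Single measures used exact sign-flip tests over plates. Python 3.11.15 was used. Gene names came from TAIR10.1, which held 32548 of 32834 table entries, so no coordinates are given. Same-numbered pools and plates hold both groups, so the plate pairs A and B by design.

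The members, gene lists and tests were chosen with earlier results of these data known. Named genes were the 12 largest called differences per direction with the same sign on at least 6 of 7 plates, 15 stage genes, up to 4 genes of lowest p per list, and the 5 largest per direction of each contrast; list members that passed, and genes said to be chosen later, were added. The contrasts of A with D and C with B, the residuals that add side scatter and the test between lines were added after the data were seen.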

Additional observations from a re-analysis of the deposited data

Results flagged for a closer look

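The difference in genes detected between A and B on plate TMM-1, at -1798, stood apart from the other 6 plates, which lay between -681 and 61.2. Of 43 results examined for an outlying plate over 7 plates this was the 1 that stood out, and chance alone flags about 1 in 20. The cause was not tested.

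GRP-3 differed between the reporter lines. With both lines split on the YFP sequence, the difference between A and B was 3.20 ± 0.55 in TMMp and -2.73 ± 1.50 in ATML1p, and the TMMp value minus the ATML1p value was 5.93 ± 1.304 (limma adjusted p = 0.0319). The ATML1p value rests on 20 A and 18 B cells on 4 plates. The test between lines fitted 1 variance to the plate differences of both lines. Its SE of 1.304 is therefore below the 1.50 of the ATML1p value alone, and its adjusted p may be too small.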

How the results depend on the processing

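The 1602 genes called between A and B became 513 with the log2 of the mean TPM, 1061 with detection in at least 25% of cells, 28 with no filter beyond 1 cell, 477 with residuals on genes detected, 3003 on forward scatter, 219 on both and 116 on both with side scatter. Without single plates or pools the count ran from 386 to 1609. All 24 leading genes kept their direction under the 25 alternatives run, and their calls under all but 2: with no filter 0 of 12 higher and 7 of 12 lower ones passed, and with side scatter added to the residuals 10 and 10. The 24 were picked for large differences in these data, which favours such stability. Of 90 called genes followed, 36 lost their call on residuals of genes detected and 54 with forward scatter added. The loss was 41 without pool 1, 42 without pool 2 and 43 with the log2 of the mean TPM. The replicate block pairs A and B of a plate: without it 1375 genes passed between A and B, 5698 for transcript, 515 for brightness, 358 for C against B and 1 for A against D. The brightness count of 805 became 59 with residuals on genes detected and 26 with forward scatter added, and ran from 0 to 1435 without single plates or pools, at 0 without pool 2 (limma, 590 at an unadjusted p under 0.05). The transcript count of 5997 became 992 and 653 under those residuals and ran from 2881 to 5779. C against B became 150 and 145, and ran from 18 to 937; A against D became 3 and 2, and ran from 0 to 7. FAMA stayed lower in C than in B under all 12 alternatives, with an adjusted p of at most 0.0501 in limma, and SPCH stayed higher, with an adjusted p up to 0.307.

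Without single plates or pools the forward scatter difference ran from 0.278 to 0.443, side scatter from 0.547 to 0.638, genes detected from -1239 to -297 and organelle percent from 1.27 to 4.95. Dropping a pool leaves 5 or 2 plates, which cannot reach 0.05 in the exact test. With cells in the outer tertiles of each plate genes detected fell by 782 and organelle percent rose by 3.91, both past the threshold. The count of stage gene shares past 0.05 was 5 with any TPM above 0 and 0 without any plate or pool. Signs reversed for the share of cells with BASL (0.131 points without plate TMM7, lowest -3.76), the share of cells with SCAP1 (0.238 without pool 1, lowest -6.27) and the share of cells with EPF2 (3.33 without pool 2, lowest -7.41), for MPK3 with the log2 of the mean TPM (0.145), and with side scatter added for HSP81-3 (0.0035) and CML38 (-0.205). The cause was not tested. Depth per cell is unknown, which limits genes present in few cells.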
